A study of Mus musculus with 4 samples.

Results

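Lhx6 cells without Sst were examined in the E16.5 cortex of mice labelled COP1 KO and of mice labelled HET. The class is named Sst-negative interneurons of the medial ganglionic eminence (MGE), a name checked below on the class as a whole. Its cells were taken as barcodes with at least 500 genes, at least 1 UMI (unique molecular identifier, 1 counted transcript) of Lhx6 and 0 UMIs of Sst. They also had at least 1 UMI of Gad1, Gad2, Dlx1 or Dlx2, 0 UMIs of Neurod6, and at most 1 of 6 division genes detected (Mki67, Top2a, Cdk1, Ccnb1, Cenpf and Ube2c). This rule kept 525 of 19237 barcodes: 112 and 125 in COP1 KO replicates 1 and 2, and 132 and 156 in HET replicates 1 and 2. The levels of these rule genes chose the cells and are not results.

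Cortical cells were profiled by droplet single-cell sequencing of transcript 3′ ends, with 1 library for each of 2 COP1 KO and 2 HET mice, all of the C57BL/6 background. The labels give the genotype as COP1 KO, with CKO in the sample titles and no driver named, and do not define HET. The cortex was dissociated with papain, so each class is what survived dissociation.

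MGE interneurons arise in the ventral forebrain and migrate tangentially into the cortex, where they become GABA-releasing neurons. Lhx6, a LIM homeobox factor, follows Nkx2-1 in this lineage and acts ahead of Sox6, Satb1 and Maf. The lineage yields the somatostatin (Sst) and the parvalbumin interneurons. Sst appears before birth, whereas parvalbumin appears only after birth, so Lhx6 cells without Sst at this age have no peptide marker of their own. COP1 is a ubiquitin ligase subunit that marks proteins such as c-JUN, ETS1 and ETV1 for destruction.

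The deposited tables held 28049007 and 28988265 counts for COP1 KO replicates 1 and 2, and 28327090 and 28071382 for HET replicates 1 and 2. Sst-negative cells had median depths of 2622.5 and 3113 UMIs in COP1 KO and 3207 and 3097.5 UMIs in HET, and summed to between 360894 and 641760 counts per library. No Sst-negative barcode occurred in more than 1 library, against 181 in the whole series, and none had a doublet score of 0.25 or more. COP1 KO replicate 1 stood apart in blood genes. Its summed level of 6 blood genes in Sst-negative cells was 9457 CPM (counts scaled to the class total of the library), with 95.2% of the Hbb-bt counts of the class in 1 of its barcodes, against 169 CPM in COP1 KO replicate 2 and 208 and 196 CPM in HET. Microglia markers summed to 171 CPM in COP1 KO replicate 2, where 1 barcode held 3 or more of these markers, against 16.6 CPM in COP1 KO replicate 1 and 3.92 and 4.67 CPM in HET. For results that rest on these barcodes, the concentration of counts in few cells or a value without them is given. HET replicate 1 was highest in 2 other sets. Vessel and meninges markers summed to 116 CPM there, against 10.9 CPM in HET replicate 2 and 2.77 and 0 CPM in COP1 KO. Oligodendrocyte lineage markers summed to 70.6 CPM there, against 6.23 CPM in HET replicate 2 and 2.77 and 7.5 CPM in COP1 KO. No alternative left out barcodes with these markers.

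The label was first checked against Maf and Nxph1, since its other marker, Lhx6, is part of the rule. Maf, a transcription factor of MGE interneurons, had 211 and 86.2 CPM in COP1 KO and 122 and 140 CPM in HET. In the same libraries the excitatory neurons (2 or more Neurod6 UMIs, no Gad1, Gad2, Dlx1 or Dlx2) had 0.696 to 1.33 CPM of Maf. Nxph1, a secreted neurexin ligand, had 557 and 461 CPM in COP1 KO and 396 and 355 CPM in HET, against 2.41 to 4.31 CPM in excitatory neurons. Nxph1 was detected in 54.5% to 67.0% of Sst-negative cells and Maf in 24.0% to 35.7%, and after thinning every cell to 2000 UMIs in 42.3% to 65.4% and 19.2% to 30.8%. Thinning kept 104 of 112 Sst-negative cells in COP1 KO replicate 1 and all of them in the other 3 libraries. Excitatory neurons were deeper, with medians of 5008.5 to 6167 UMIs, yet Nxph1 was detected in only 1.18% to 2.39% of them and Maf in 0.377% to 0.708%. Lhx6 itself was found in 0.715% to 1.34% of excitatory neurons.

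**Figure D1:**
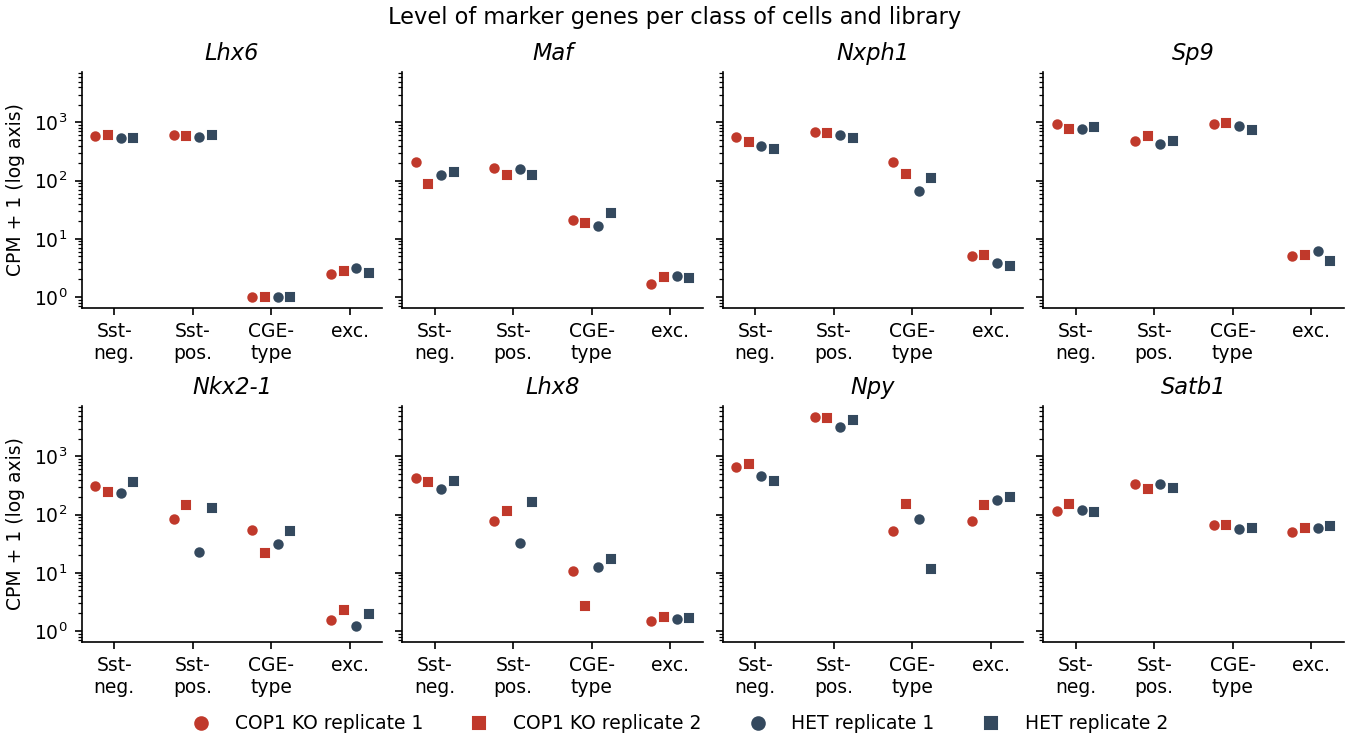
Level of 8 genes, as CPM + 1 on a log axis, in the summed cells of each class and library: Sst-negative and Sst-positive Lhx6 cells, CGE-type Lhx6-negative cells and Neurod6 excitatory neurons. Maf and Nxph1 were higher in all 4 libraries of both Lhx6 classes than in any library of the other two, Nkx2-1 and Lhx8 were highest in Sst-negative cells, and Npy was highest in Sst-positive cells.

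Cells of the caudal ganglionic eminence type (CGE-type, 721 barcodes), defined by 0 Lhx6 and 0 Sst with at least 1 UMI of Adarb2, Prox1, Sp8 or Htr3a and 0 of Isl1 and Ebf1, were the nearest other interneurons. Maf had 15.8 to 26.8 CPM and Nxph1 64.5 to 210 CPM in them, below every library of the Sst-negative class. A single Lhx6 UMI carried the call in 58 and 54 COP1 KO cells and in 70 and 64 HET cells.

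Cells on the other side of the Sst boundary were the 440 Lhx6 cells with Sst. Of these, 15 and 22 COP1 KO cells and 21 and 18 HET cells held just 1 Sst UMI. In excitatory neurons, which should lack the gene, 4.67% to 8.86% of cells held an Sst UMI. Sst-positive cells had medians of 3188 and 3370 UMIs in COP1 KO and 3450 and 3453 UMIs in HET, slightly more than Sst-negative cells of the same library.

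Sst-negative cells were compared with Sst-positive cells within the same 4 libraries. Among the genes that passed, the transcription factor genes Nkx2-1, Lhx8, Zic1, Sp9 and Dlx5 were higher in Sst-negative cells. The peptide genes Npy and Cort, the transcription factor genes Satb1 and Sox6, and the receptor genes Grik1 and Gria1 were lower. With edgeR's quasi-likelihood test and the library as a block, 313 of 8037 genes passed a Benjamini-Hochberg adjusted p of 0.05, which is 3.89%. Of these, 138 (1.72%) were higher and 175 (2.18%) lower in Sst-negative cells, and rule genes were left out. DESeq2 called 48, a minimum of 2 Lhx6 UMIs left 157, and leaving out COP1 KO replicate 1 or HET replicate 1 left 184 or 205. Cells thinned to 2000 UMIs gave 285, and leaving out barcodes with microglia or blood transcripts gave 347.

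Npy, neuropeptide Y, had 648 and 737 CPM in COP1 KO and 457 and 371 CPM in HET among Sst-negative cells. In Sst-positive cells it had 4776 and 4580 CPM in COP1 KO and 3256 and 4190 CPM in HET. The classes did not overlap (log2 difference −2.96, SE 0.087, edgeR adjusted p = 4.85e-17). Npy was detected in 26.9% to 41.6% of Sst-negative cells per library, against 7.42% to 14.9% of the deeper excitatory neurons. After thinning to 2000 UMIs these shares were 23.5% to 36.0% and 4.37% to 8.82%.

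Cort, cortistatin, a peptide related to somatostatin, had 0 and 16.9 CPM in COP1 KO and 23.5 and 3.12 CPM in HET among Sst-negative cells, against 49.4 to 123 CPM in Sst-positive cells (log2 −2.94, SE 0.306, edgeR adjusted p = 8.18e-07). Of 16 somatostatin interneuron genes, 11 entered this comparison, and 7 were lower and 1 higher in Sst-negative cells (median log2 −1.68, against 0.0022 over all genes). The other lower members were Npy, Calb1 (−1.68), a calcium buffer, Tac1 (−1.99), the precursor of substance P, Elfn1 (−1.03), a synaptic adhesion protein, Chodl (−2.79, held by 4 Sst-negative and 19 Sst-positive cells) and Crhbp (−5.36, held by 1 and 25). Cort, Chodl and Crhbp met the count filter mainly through Sst-positive cells, so the filter shaped the count and median of this list. Crabp1, which binds retinoic acid, went the other way, with 175 and 124 CPM in COP1 KO and 175 and 59.2 CPM in HET among Sst-negative cells and 2.60 to 50.8 CPM in Sst-positive cells (log2 2.47, SE 0.241, edgeR adjusted p = 3.46e-07). Only 35 Sst-negative and 11 Sst-positive cells held Crabp1, and 52.3% of the Sst-positive counts lay in 1 cell. Sstr1, a somatostatin receptor, was also lower in Sst-negative cells (log2 −2.09, SE 0.283).

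Among 17 MGE identity genes in this comparison, 4 were higher and 7 lower in Sst-negative cells (median −0.30). Lhx8, a LIM factor of cholinergic and other MGE neurons, had 418 and 367 CPM in COP1 KO and 279 and 376 CPM in HET. Sst-positive cells had 77.4 and 113 CPM of Lhx8 in COP1 KO and 31.2 and 164 CPM in HET, and no library of one class reached the other (log2 1.91, SE 0.169, edgeR adjusted p = 9.01e-08). AI606473, a noncoding RNA gene that begins just beyond Lhx8 on chromosome 3 (GRCm38.p6, 154330821 to 154334687, with Lhx8 at 154306288 to 154330560), followed it with a log2 difference of 1.87 (SE 0.295), or 2.65 without COP1 KO replicate 2.

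Nkx2-1, the homeobox factor that specifies the MGE, had 308 and 240 CPM in COP1 KO and 239 and 360 CPM in HET among Sst-negative cells, against 21.5 to 147 CPM in Sst-positive cells (log2 1.59, SE 0.199, edgeR adjusted p = 1.43e-05). With DESeq2 the adjusted p was 0.16 for Nkx2-1, 0.238 for AI606473 and 0.0897 for Calb1. Sp9 (0.72), a zinc finger factor of ventral interneurons, was also higher. The lower members included Nxph2 (−1.61), Npas1 (−1.37), Satb1 (−1.29), Sox6 (−0.64), Nxph1 (−0.51) and Mef2c (−0.37). Maf did not pass (log2 −0.09, SE 0.143).

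Satb1, a chromatin organiser required for Sst interneuron maturation, shows the lower set per library. It had 116 and 152 CPM in COP1 KO and 120 and 108 CPM in HET among Sst-negative cells, and 338 and 270 CPM in COP1 KO and 332 and 281 CPM in HET among Sst-positive cells. The classes were separate by more than the spread within either (SE 0.119, edgeR adjusted p = 1.48e-07).

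**Figure D2:**
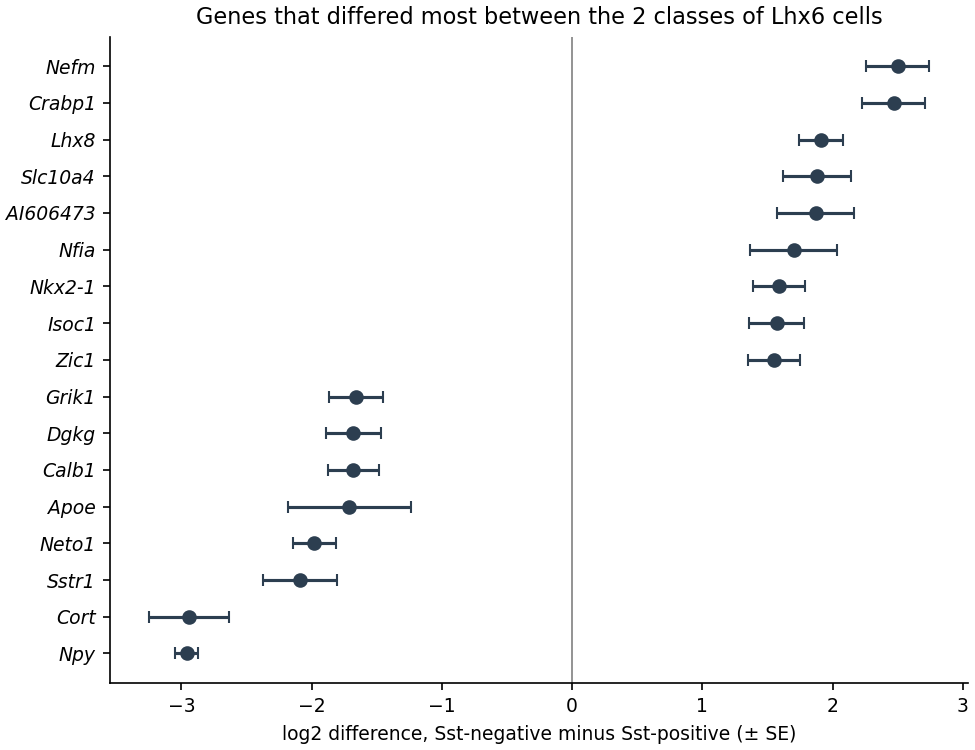
Log2 differences, Sst-negative minus Sst-positive cells, of the called genes with a mean of 50 CPM or more, up to 10 in each direction by size, with bars of ± 1 SE from 4 libraries. Nefm (2.50), Crabp1 (2.47) and Lhx8 (1.91) lie highest of those drawn, and Npy (−2.96) and Cort (−2.94) lie lowest. Called genes below 50 CPM, such as Crhbp, and Hbb-bt, Hbb-y and Hba-x are not drawn.

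Zic1, a zinc finger factor, had 61.0 and 76.9 CPM in COP1 KO and 118 and 129 CPM in HET among Sst-negative cells, against 12.9 to 46.8 CPM in Sst-positive cells (log2 1.55, SE 0.199). Slc10a4, a vesicular protein of cholinergic and monoaminergic neurons, was higher by 1.88 (SE 0.259) and Isoc1, an isochorismatase-domain protein, by 1.57 (SE 0.213). Isoc1 did not pass without barcodes holding Isl1, Ebf1, Meis2, Lhx8 or Chat (log2 0.76, edgeR adjusted p = 0.218). Slc10a4 did not meet the count filter without those barcodes, so it has no value there. Nefm, a neurofilament subunit, was higher by 2.50 (SE 0.244), and by 1.46 without COP1 KO replicate 2. Nfia, a nuclear factor I protein, was higher by 1.70 (SE 0.337). It did not pass in DESeq2, without HET replicate 1 (log2 1.06) or with 2 Lhx6 UMIs (0.74), was at 2.43 without COP1 KO replicate 2, and 31.4% of its Sst-negative counts lay in 1 cell. Gbx2, a homeobox factor of the MGE and its cholinergic derivatives, had 22.2 and 3.75 CPM in COP1 KO and 13.7 and 21.8 CPM in HET, in 16 cells, and had 0 counts in every library of Sst-positive cells. Of 19 listed striatal, pallidal or cholinergic genes, 6 were measured, and Lhx8 and Gbx2 passed, both higher (median 0.96). Gbx2 met the count filter through the Sst-negative class alone, so the filter shaped this count and median.

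Of 9 measured GABA genes, 4 were higher in Sst-negative cells, namely Sp9, Dlx5 (0.54), Dlx6 (0.88) and Dlx6os1 (0.49). Slc32a1, the vesicular GABA transporter, was lower, with 211 and 186 CPM in COP1 KO and 235 and 207 CPM in HET among Sst-negative cells and 276 to 345 CPM in Sst-positive cells (log2 −0.55, SE 0.102, edgeR adjusted p = 0.00156). The median of the list was 0.28.

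Receptor, channel and adhesion genes of maturing interneurons were lower in Sst-negative cells in 8 of 24 measured cases and higher in 1, Cacna2d2 (0.76). The median of this list was −0.46. The lower members included the kainate receptor gene Grik1 (−1.66), the AMPA receptor genes Gria1 (−0.98) and Gria2 (−0.59), the NMDA receptor gene Grin2b (−0.70), the GABA receptor gene Gabra2 (−0.92), and the adhesion genes Cdh13 (−0.88) and Cntnap2 (−0.55). Neto1, an auxiliary subunit of kainate receptors, had 16.6 and 48.7 CPM in COP1 KO and 118 and 60.8 CPM in HET among Sst-negative cells, against 190 to 326 CPM in Sst-positive cells (log2 −1.98, SE 0.167, edgeR adjusted p = 4.71e-08). Dgkg, a diacylglycerol kinase, was lower by a similar amount (−1.68, SE 0.21).

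Migration and guidance genes were higher in 3 of 18 measured cases and lower in 1 (median 0.29). Epha4, an ephrin receptor, had 130 and 133 CPM in COP1 KO and 137 and 157 CPM in HET among Sst-negative cells, against 50.8 to 81.6 CPM in Sst-positive cells (log2 1.16, SE 0.164, edgeR adjusted p = 5.88e-05). Tubb3, a neuronal tubulin, and Cdk5r1, the activator of CDK5, were higher by 0.35 and 0.27, and Sema3a, a repellent ligand, was lower (log2 −1.57). Dcx, the microtubule protein of migrating neurons, had 516 to 565 CPM in Sst-negative and 551 to 580 CPM in Sst-positive cells and did not pass (log2 −0.05, SE 0.0677).

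Immediate early genes were lower in Sst-negative cells in 5 of 8 measured cases (median −0.91). Fos had 236 and 277 CPM in COP1 KO and 530 and 279 CPM in HET among Sst-negative cells, against 575 to 934 CPM in Sst-positive cells (log2 −1.17, SE 0.0941, edgeR adjusted p = 2.01e-08). Junb (−1.53), Nr4a1 (−1.29), Fosb (−1.30) and Ier2 (−0.65) were the others. These genes respond to activity and also to papain dissociation, whose part in this difference was not tested.

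Genes of other interneuron types moved in both directions. Of 10 measured parvalbumin and chandelier genes, Nkx2-1 and St18 (2.04) were higher and Tac1 and Mef2c lower. Pvalb itself was seen in 1 Sst-negative cell of HET replicate 2 and in none of the other 3 libraries. Of 10 measured CGE genes, Prox1 (2.27) and Id2 (0.81) were higher and Npas1 and Nr2f1 (−1.18) lower in Sst-negative cells, and Vip was at 0 in both classes. Among 10 measured partners and 6 measured substrates of COP1, Trib2 (0.63), a pseudokinase adaptor, was higher and Junb lower. Radial glia markers had 1 lower call of 7 measured (Dbi, −0.59) and excitatory markers 1 higher (Bcl11b, 0.40) and 1 lower (Mef2c) of 3, and the 5 measured microglia markers had none.

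Hemoglobin genes passed the threshold with counts in few barcodes. Hbb-bt was higher in Sst-negative cells by 1.85 with 95.2% of its counts in 1 cell, and Hbb-y (−9.12) and Hba-x (−6.91) were lower, with Sst-positive counts in 3 and 2 cells. Apoe (−1.71), a gene of macrophages and glia, had 61.2% of its Sst-positive counts in 1 cell of HET replicate 2. Without barcodes of microglia or blood transcripts Hbb-bt had −0.11, and without HET replicate 2 Apoe had −0.12. These 4 genes remain in the count of 313.

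Sst-negative cells were not uniform. Nkx2-1 or Lhx8 was detected in 44 (39.3%) and 60 (48.0%) Sst-negative cells of the COP1 KO libraries and in 35 (26.5%) and 67 (42.9%) of the HET libraries, so the genotypes overlapped. This division was made after the contrast above was known and is described without a test. Cells with either factor were deeper, with medians of 3451.5 and 3790.5 UMIs in COP1 KO and 4778 and 3786 UMIs in HET, against 2419 and 2809 UMIs in COP1 KO and 3023 and 2911 UMIs in HET without them. Levels are therefore given as CPM.

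Nxph1 had 335 and 281 CPM in COP1 KO and 264 and 186 CPM in HET in the cells with Nkx2-1 or Lhx8. In the cells without them Nxph1 had 790 and 705 CPM in COP1 KO and 468 and 570 CPM in HET. Maf had 75.7 and 65.3 CPM in COP1 KO and 61.7 and 61.2 CPM in HET with either factor, against 352 and 115 CPM in COP1 KO and 154 and 241 CPM in HET without. For both markers of the label, every library was lower in the cells that held Nkx2-1 or Lhx8, and the ranges did not overlap. In HET replicate 2, Nxph1 in the cells with either factor (186 CPM) lay within the range of CGE-type cells given above. The check of the label therefore holds for the summed class, and whether the cells with either factor are cortical interneurons was not tested.

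Mef2c and Erbb4 divided the same way. Mef2c, a factor of maturing MGE interneurons, had 249 and 323 CPM in COP1 KO and 208 and 284 CPM in HET with Nkx2-1 or Lhx8, against 597 and 683 CPM in COP1 KO and 935 and 886 CPM in HET without. Erbb4, the neuregulin receptor, had 27.0 and 35.9 CPM in COP1 KO and 72.9 and 91.8 CPM in HET with either, against 199 and 141 CPM in COP1 KO and 205 and 209 CPM in HET without.

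Zic1 ran the other way. It had 114 and 84.9 CPM in COP1 KO and 236 and 200 CPM in HET with Nkx2-1 or Lhx8, against 5.68 and 66.1 CPM in COP1 KO and 54.3 and 39.0 CPM in HET without. Chat, the acetylcholine-synthesising enzyme, was at 0 in COP1 KO replicates 1 and 2 and in HET replicate 1, and 1 cell of HET replicate 2 held it. Sox6, a SoxD factor of migrating MGE cells, overlapped between the divisions, with 56.1 to 141 CPM with either factor and 70.5 to 110 CPM without.

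**Figure D3:**
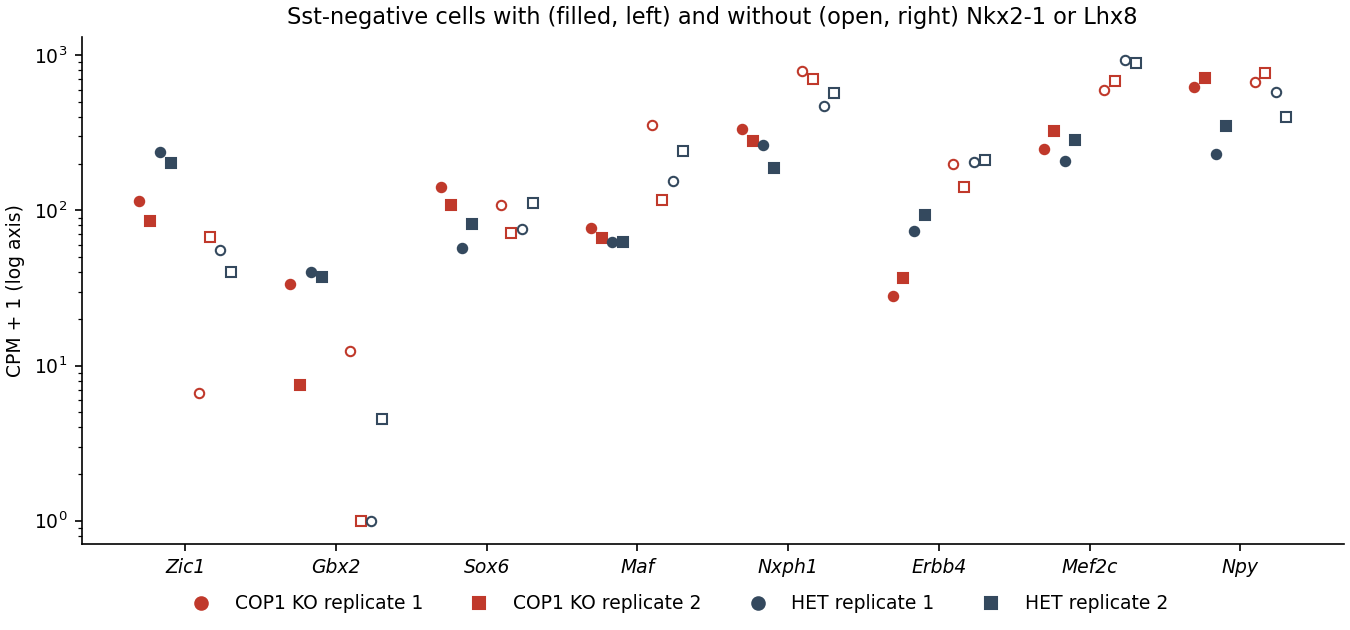
Levels of 8 genes, as CPM + 1 on a log axis, in Sst-negative cells with Nkx2-1 or Lhx8 detected (filled symbols, left of each pair) and without (open symbols, right), per library. Nxph1, Maf, Mef2c and Erbb4 lie lower in all 4 libraries of the filled symbols, and Zic1 lies higher.

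The next question was whether Sst-negative cells were as frequent in COP1 KO as in HET cortex. They made up 2.12% (95% exact binomial interval 1.75 to 2.55) and 2.62% (2.18 to 3.11) of COP1 KO barcodes with 500 genes. In HET they made up 2.88% (2.41 to 3.40) and 3.57% (3.04 to 4.16). Intervals cover counting error only. The shares averaged 2.37% ± 0.348 in COP1 KO and 3.22% ± 0.487 in HET (SD, n = 2 each), and both COP1 KO libraries lay below both HET libraries. An exact two-sided permutation of 2 libraries against 2 gives p = 0.33, the smallest it can give, so this test could not pass a threshold of 0.05. With 2 or more Lhx6 UMIs required, the shares averaged 1.26% in COP1 KO and 1.73% in HET, and the libraries overlapped (exact permutation p = 0.667).

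**Figure D4:**
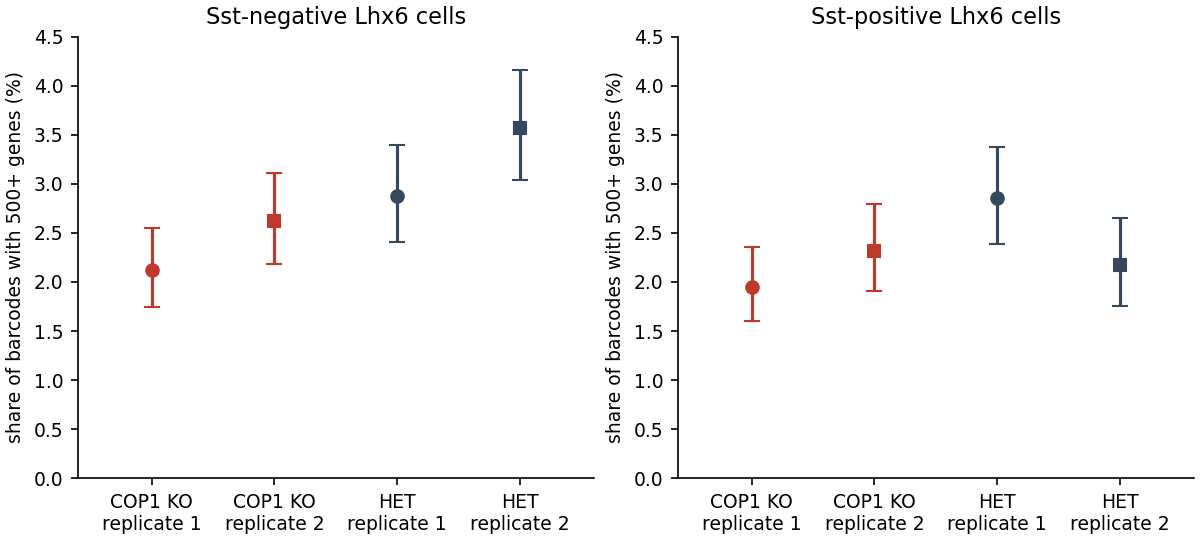
Share of barcodes with 500 or more genes, in percent, that were Sst-negative Lhx6 cells (left) and Sst-positive Lhx6 cells (right) in each library, with 95% exact binomial intervals. Both COP1 KO libraries lie below both HET libraries for Sst-negative cells, at 2.12% and 2.62% against 2.88% and 3.57%, and the genotypes overlap for Sst-positive cells. CGE-type cells, which are not drawn, had the same order of genotypes as Sst-negative cells.

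Sst-positive cells made up 1.95% and 2.32% of COP1 KO barcodes and 2.86% and 2.17% of HET barcodes, which overlapped. CGE-type cells made up 3.24% and 3.68% of COP1 KO barcodes and 4.45% and 3.89% of HET barcodes. Both COP1 KO libraries lay below both HET libraries there too, so this order was not particular to Sst-negative cells. Excitatory neurons made up 50.4% and 45.6% of COP1 KO barcodes and 49.0% and 48.5% of HET barcodes, which overlapped. As a share of all Lhx6 cells, the Sst-negative class was 52.1% and 53.0% in COP1 KO and 50.2% and 62.2% in HET. The COP1 KO values lay between the HET values (difference of means −3.64 percentage points, exact permutation p = 1). HET replicate 2 decided the sign of this difference, which was 2.34 points without it. COP1 KO replicate 1 had both the fewest Sst-negative cells and the shallowest, and a part of depth in the shares was not tested. With every cell thinned to 2000 UMIs, the Sst-negative shares of barcodes averaged 1.92% in COP1 KO and 2.77% in HET, a difference of −0.858 points, against −0.852 points unthinned. Thinning drops barcodes under 2000 UMIs and kept 104 of 112 Sst-negative cells and 5135 of 5274 barcodes of COP1 KO replicate 1. The thinned difference is therefore no check on depth alone.

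The genotype comparison within Sst-negative cells called no gene. Among 7518 genes, 0 (0%) passed an adjusted p of 0.05 in edgeR, 465 had an unadjusted p under 0.05 (272 higher and 193 lower in COP1 KO), and DESeq2 called 2. The median log2 change was 0.0053. Without the filter on low counts 85 genes passed, and with the sex of the library as a covariate, read from Xist and Y-linked counts, 41 passed, a fit that leaves 1 residual degree of freedom. Leaving out 1 library, which assumes that a lone library varies like the others, gave 10 genes without COP1 KO replicate 1, 27 without COP1 KO replicate 2, 33 without HET replicate 1 and 79 without HET replicate 2. The 10 genes of smallest p with at least 20 CPM are therefore given as values. For all 10 of them the COP1 KO and HET libraries did not overlap, which their choice by p favours, so this is no support for a difference. The share of all tested genes without overlap is not given here. All 10 passed in the fit without the filter and in the fit with sex.

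Neurofilament genes had the largest positive changes of the 10. Nefl, the light neurofilament subunit, had 105 and 287 CPM in COP1 KO against 29.4 and 45.2 CPM in HET (log2 2.46, SE 0.404, edgeR adjusted p = 0.136). Nefm, the medium subunit, had 111 and 553 CPM in COP1 KO against 25.5 and 43.6 CPM in HET (log2 3.33, SE 0.584, edgeR adjusted p = 0.185). COP1 KO replicate 2 carried most of the counts of both genes, and without it the log2 change was 1.52 for Nefl and 1.70 for Nefm. Nefl passed in DESeq2 (log2 2.41, adjusted p = 0.0214), and Nefm did not. Nefl was detected in 53 and Nefm in 59 of the 525 cells, and 17.6% of the Nefm counts lay in 1 cell of COP1 KO replicate 2. In Sst-positive cells Nefl had 82.6 and 113 CPM in COP1 KO and 33.2 and 7.81 CPM in HET.

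Npy, whose levels stand above, differed by a log2 of 0.79 (SE 0.142, edgeR adjusted p = 0.186). Over the alternatives its change ranged from 0.34 with 2 or more Lhx6 UMIs to 0.93 without HET replicate 1. It was 0.49 without barcodes holding Isl1, Ebf1, Meis2, Lhx8 or Chat. In Sst-positive cells the change of Npy was 0.36 (SE 0.104), and the difference between the classes did not pass (adjusted p = 0.857). Ddah1, an enzyme that clears inhibitors of nitric oxide synthase, had 247 and 352 CPM in COP1 KO against 171 and 176 CPM in HET (log2 0.85, SE 0.169, edgeR adjusted p = 0.252). Ppp2ca, a catalytic subunit of phosphatase PP2A, had 496 and 330 CPM in COP1 KO against 196 and 221 CPM in HET (log2 0.996, SE 0.188, edgeR adjusted p = 0.234). For Ppp2ca the values in Sst-positive cells were close, 516 and 291 CPM in COP1 KO and 197 and 250 CPM in HET.

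Rnf121, a membrane ubiquitin ligase of the secretory pathway, had 144 and 156 CPM in COP1 KO against 53.0 and 65.4 CPM in HET (log2 1.37, SE 0.218, edgeR adjusted p = 0.136). It was spread over 146 cells, with at most 2.94% of its counts in 1 cell. Rnf121 had been picked for the lists because it was higher in the whole COP1 KO libraries of these mice, so the class is no independent evidence of its direction. Rps20, a ribosomal protein, had 224 and 306 CPM in COP1 KO against 153 and 150 CPM in HET (log2 0.87, SE 0.17, edgeR adjusted p = 0.242). Reads of Rps20 may be shared with near-identical pseudogene copies.

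**Figure D5:**
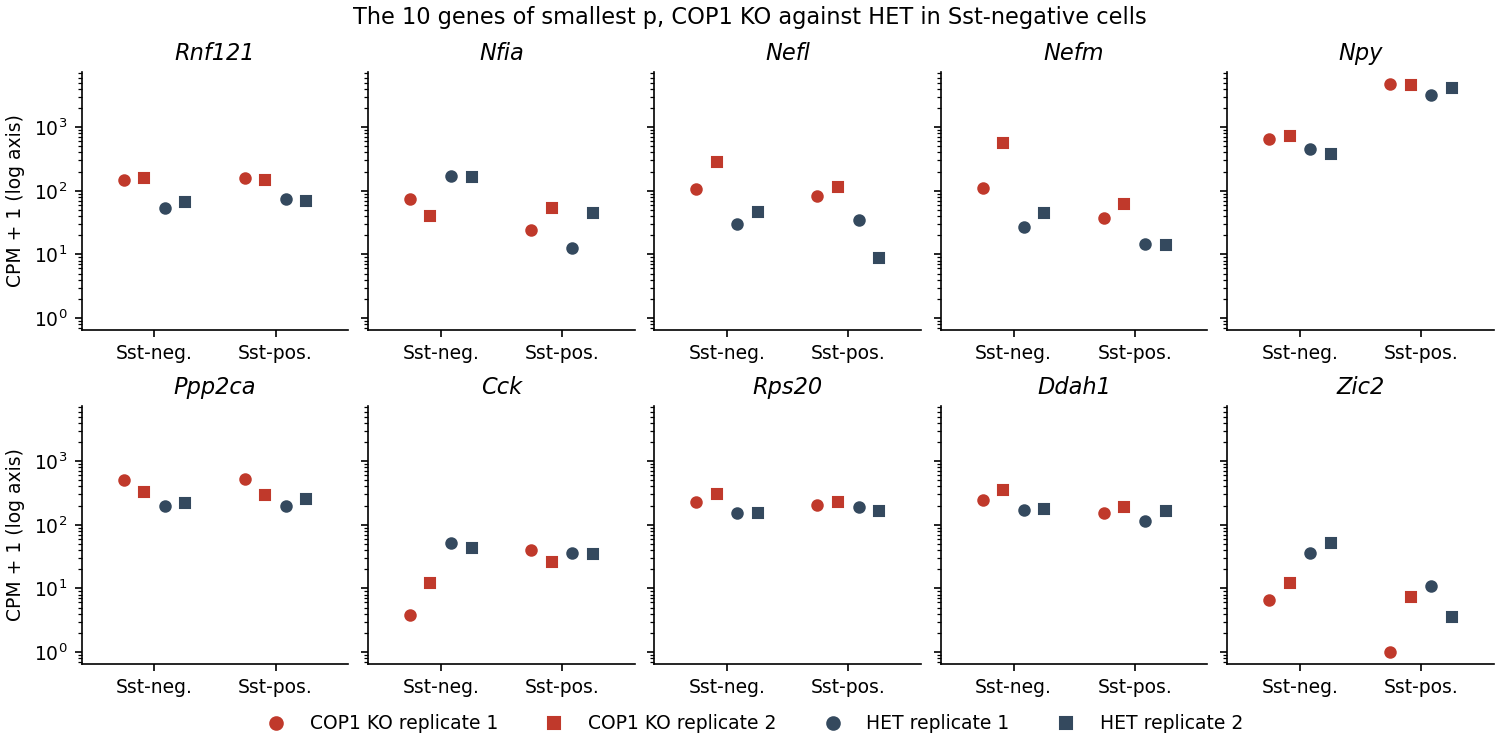
Levels, as CPM + 1 on a log axis, of the 10 genes with the smallest p between COP1 KO and HET in Sst-negative cells, shown per library in Sst-negative and in Sst-positive cells. Rnf121, Nefl, Nefm, Npy, Ppp2ca and Rps20 have both COP1 KO libraries above both HET libraries in each class, and Nfia, Cck, Ddah1 and Zic2 overlap between the genotypes in Sst-positive cells. None passed the adjusted threshold in edgeR with the low-count filter and no covariate.

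Of the 10, 3 were lower in COP1 KO. Nfia had 72.0 and 39.4 CPM in COP1 KO against 171 and 164 CPM in HET (log2 −1.61, SE 0.261, edgeR adjusted p = 0.136). Of its counts, 31.4% lay in 1 cell of HET replicate 2. Its log2 change was −0.98 after thinning, −0.65 with 2 Lhx6 UMIs and −0.56 without barcodes holding Isl1, Ebf1, Meis2, Lhx8 or Chat. Cck, the cholecystokinin peptide, had 2.77 and 11.2 CPM in COP1 KO against 51.0 and 42.1 CPM in HET (log2 −2.50, SE 0.482, edgeR adjusted p = 0.242), and 26.7% of its counts lay in 1 cell of HET replicate 1. Without COP1 KO replicate 2 the change was −3.88 for Cck. Zic2, a paralog of Zic1, had 5.54 and 11.2 CPM in COP1 KO against 35.3 and 49.9 CPM in HET (log2 −2.21, SE 0.461, edgeR adjusted p = 0.324), in 17 cells in all, or −2.85 without COP1 KO replicate 2. In Sst-positive cells Nfia had 23.2 and 52.3 CPM in COP1 KO and 11.7 and 44.2 CPM in HET, and Cck had 38.7 and 25.1 CPM in COP1 KO and 35.2 and 33.8 CPM in HET. The differences between the classes did not pass (adjusted p = 0.211 for Nfia and 0.33 for Cck). Cck and Zic2 met the count filter in Sst-negative cells through their higher HET levels.

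The targeted gene, listed as Rfwd2, had 38.8 and 33.7 CPM in COP1 KO against 21.6 and 26.5 CPM in HET among Sst-negative cells (log2 0.60, SE 0.35, edgeR adjusted p = 0.844). The labels do not say which exons were removed. A 3′ count from elsewhere in the transcript checks nothing, so this value is no test of the genotype. Of 10 measured COP1 ligase genes none passed, 5 being higher and 5 lower (median 0.0095).

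Of 10 listed COP1 substrates, 5 were measured by transcript and none passed. Of these, 4 were lower and 1 higher in COP1 KO (median −1.14, the value of Etv1, against 0.0053 over all genes). Ets1 and Etv1 met the count filter through their higher HET levels, so the filter shaped this count and median, which show no direction of the substrates. Ets1 had 8.31 and 11.2 CPM in COP1 KO against 41.2 and 34.3 CPM in HET (log2 −1.84, SE 0.431, edgeR adjusted p = 0.527). Etv1 had 13.9 and 18.7 CPM in COP1 KO against 37.3 and 39.0 CPM in HET (log2 −1.14, SE 0.377, edgeR adjusted p = 0.628). Jun had 438 and 401 CPM in COP1 KO against 504 and 528 CPM in HET (log2 −0.26, SE 0.13), Junb 55.4 and 22.5 CPM in COP1 KO against 161 and 57.7 CPM in HET, and Jund 1621 and 984 CPM in COP1 KO against 669 and 1002 CPM in HET. Jund overlapped between the genotypes, and Junb was separated only by 55.4 CPM in COP1 KO replicate 1 against 57.7 CPM in HET replicate 2. In Sst-positive cells, where Etv5 was measured in place of Etv1, 4 of 5 were higher and 1 lower (median 0.25). These are transcript levels, whereas COP1 acts on the proteins.

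Immediate early genes were lower in COP1 KO for all 8 measured in Sst-negative cells, none past the threshold (median −0.43), and Jun and Junb belong to this list and to the substrates. The summed level of the 12 listed genes was 1014 and 928 CPM in COP1 KO against 1620 and 1105 CPM in HET. In Sst-positive cells it was 1835 and 1865 CPM in COP1 KO and 2101 and 1473 CPM in HET, which overlapped. HET replicate 1 was the highest library in both classes. Of 7 measured ERK feedback and ETS target genes, 3 were higher and 4 lower with none passing (median −0.12).

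MGE identity genes were close to even in sign, with 11 of 18 higher and 7 lower in COP1 KO and none passing (median 0.13). An unadjusted edgeR p under 0.05 was found for 6 of the 18, 1 higher and 5 lower, against 465 of 7518 genes in all. Nxph1 had the largest higher change of the list, with both COP1 KO libraries above both HET libraries (log2 0.47, SE 0.144, edgeR adjusted p = 0.59), and Nxph2 the largest lower one, with 49.9 and 33.7 CPM in COP1 KO against 72.6 and 70.1 CPM in HET (log2 −0.77, SE 0.293). Erbb4 had 111 and 80.6 CPM in COP1 KO against 159 and 143 CPM in HET (log2 −0.65, SE 0.217). Of 11 measured GABA genes, 2 were higher and 9 lower (median −0.20), from −0.54 for Abat to 0.12 for Sp9. None of them passed either.

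Of 17 measured migration genes, 8 were higher and 9 lower in COP1 KO, none past the threshold (median −0.0055). Cxcr4, the CXCL12 receptor that guides interneuron migration, had 0 and 9.37 CPM in COP1 KO against 25.5 and 23.4 CPM in HET (log2 −2.05, SE 0.678, edgeR adjusted p = 0.628). In COP1 KO replicate 1 it was found in 0 of 112 cells, which allows a share of cells with a UMI, not of cells expressing the gene, of up to 2.68%. Cxcr4 met the count filter through its higher HET levels, so the filter shaped the count and median of this list. Nrp1, a semaphorin receptor, had 47.1 and 60.0 CPM in COP1 KO against 114 and 84.1 CPM in HET (log2 −0.81, SE 0.265, edgeR adjusted p = 0.628).

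Ackr3, the other CXCL12 receptor, was low in 1 library. It had 0 counts in COP1 KO replicate 1, against 43 in COP1 KO replicate 2 and 43 and 48 in HET. In Sst-positive cells COP1 KO replicate 1 had 1 count, COP1 KO replicate 2 had 44, and the HET libraries had 50 and 45. Over all barcodes with 500 genes it had 16 counts in COP1 KO replicate 1, against 315 in COP1 KO replicate 2 and 291 and 313 in HET.

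Other lists held no call in Sst-negative cells. Of 7 measured somatostatin interneuron genes, 4 were higher and 3 lower (median 0.076). Of 9 measured parvalbumin and chandelier genes, 2 were higher and 7 lower (median −0.13), and of 9 measured CGE genes, 2 were higher and 7 lower (median −0.44). Cck met the count filter through its higher HET levels, so the filter shaped the CGE count and median, which show no direction. Of 23 measured receptor, channel and adhesion genes, 9 were higher and 14 lower (median −0.052), and of 6 measured striatal, pallidal or cholinergic genes, 1 was higher and 5 lower (median −0.67). Meis2, a factor of striatal and CGE lineages, had 13.9 and 52.5 CPM in COP1 KO against 131 and 62.3 CPM in HET, and Isl1, a factor of striatal and cholinergic neurons, had 22.2 and 5.62 CPM in COP1 KO against 23.5 and 68.6 CPM in HET. Of 4 measured AP-1 targets and genes picked as higher in whole COP1 KO libraries, 2 were higher and 2 lower (median 0.16). No member of the oligodendrocyte, microglia, vessel or division lists reached the count filter. Radial glia (6 measured, median −0.015) and excitatory markers (3 measured, median −0.021) had no call. Their summed levels were 635 and 487 CPM in COP1 KO and 583 and 514 CPM in HET for radial glia, and 1344 and 1232 CPM in COP1 KO and 1273 and 1376 CPM in HET for excitatory markers, mostly Bcl11b and Mef2c, which interneurons also express.

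The same test in Sst-positive cells called 2 of 6897 genes (0.029%), both higher in COP1 KO, and the Sst-negative values of these genes differed. Calb2, calretinin, had 72.3 and 111 CPM in COP1 KO against 1.95 and 2.60 CPM in HET among Sst-positive cells, where each HET library held 1 count (fitted log2 5.23, SE 0.54, edgeR adjusted p = 0.00396). Only 17 Sst-positive cells held it, and 43.4% of the counts lay in 1 cell. Among Sst-negative cells Calb2 had 85.9 and 91.9 CPM in COP1 KO and 131 and 46.7 CPM in HET (log2 0.09, SE 0.375), with the genotypes overlapping. Itm2a, a membrane protein, had 157 and 130 CPM in COP1 KO against 15.6 and 26.0 CPM in HET among Sst-positive cells (log2 2.83, SE 0.309, edgeR adjusted p = 0.00396). Among Sst-negative cells Itm2a had 77.6 and 11.2 CPM in COP1 KO against 153 and 103 CPM in HET (log2 −1.65, SE 0.494, edgeR adjusted p = 0.59). Of these counts, 34.8% lay in 1 cell of HET replicate 1, and without COP1 KO replicate 1 the log2 change was −3.45. With Sst-negative and Sst-positive cells summed together it was 0.24. Itm2a missed the threshold in Sst-positive cells with 2 Lhx6 UMIs (log2 1.92, adjusted p = 0.305), after thinning (log2 2.39, adjusted p = 0.078) and without barcodes holding Isl1, Ebf1, Meis2, Lhx8 or Chat (log2 2.36, adjusted p = 0.0853). With 1 library left out the Sst-positive count was 44 to 110, with COP1 KO replicate 2 out giving the most and COP1 KO replicate 1 out the fewest. In CGE-type cells the genotype test called 8 of 8360 genes (0.0957%), 6 higher (0.0718%) and 2 lower (0.0239%), and in excitatory neurons 0 of 14512, where 1376 had an unadjusted p under 0.05.

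The difference of the genotype effects, Sst-negative minus Sst-positive, was tested directly, and 24 of 8043 genes (0.298%) passed, 20 higher (0.249%) and 4 lower (0.0497%). Most of the 20 are expressed in macrophages and microglia (Ccl2, C1qb, Tyrobp). Their counts lay mainly in 1 Sst-negative barcode of COP1 KO replicate 2 and 1 Sst-positive barcode of HET replicate 2. With barcodes of microglia or blood transcripts left out, 3 genes passed, Calb2 (log2 −5.30), Itm2a (−4.52) and Fabp7 (−3.65). DESeq2 called 1. Without HET replicate 2 the count was 9, without COP1 KO replicate 2 it was 12, without COP1 KO replicate 1 it was 41, and without HET replicate 1 it was 23.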

How the data were processed

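The authors deposited raw counts, whole numbers per gene and cell barcode with 1 table per library, not normalized. Per the submitters' processing notes, the aligner was GSNAP and the build GRCm38 (mm10). Counter and annotation are not given in the sources used. Of 36528 gene rows, 3065 carried only a number (1.69% of counts) and are not named, and 33 identical copies were removed. Coordinates are from RefSeq GRCm38.p6, which matched 30941 of 33445 names.

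Barcodes were chosen by detection, without clustering. Scrublet scores (scanpy 1.11.5) were used only in an alternative. Raw counts were summed per class and library, the library (1 mouse) being the replicate, and tested with edgeR 4.0.16 (quasi-likelihood, TMM, filterByExpr, Benjamini-Hochberg over all genes) in R 4.3.3, with DESeq2 1.42.0 as an alternative. SEs were derived from each log2 estimate and its F statistic. CPM is relative to the class sum of the library. A list member counts as measured if it passed the count filter, as genes do that are high in 1 group only. Alternatives changed the scaling, the filter, the test, the cell rule, the depth per cell or the libraries. One left out barcodes with 3 or more microglia markers or 1% or more hemoglobin counts. Scripts were tested on simulated counts.

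The members, lists and tests were chosen with earlier results of these data known. Named genes were the 10 of smallest p at 20 CPM or more for genotype, as fewer than 10 passed, and up to 10 per direction at 50 CPM or more between classes. Other list members past the threshold, the division by Nkx2-1 or Lhx8, and Ackr3, Gbx2, Dcx, Chat and Pvalb, were singled out after their values were seen. Values of a few list members are not reported here, although the list counts include them.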

Additional observations from a re-analysis of the deposited data

Results flagged for a closer look

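The genotype effect differed between Sst-negative and Sst-positive cells for 24 genes, by the edgeR test of the class-by-genotype term. Values are log2 effects of COP1 KO against HET, Sst-negative minus Sst-positive. Chemokine genes had 17 for Ccl2, 15.5 for Ccl7, 15.1 for Ccl12, 14.4 for Cxcl2, 11.3 for Ccl3, 11.3 for Ccl24 and 10.6 for Ccl4. Pf4, a platelet and macrophage chemokine, had 14.3. Complement genes had 13.5 for C1qb, 10.6 for C1qc and 7.97 for C1qa. Other macrophage genes had 11.9 for F13a1, 10.3 for Tyrobp, 9.87 for Mrc1, 9.07 for Fcer1g, 7.76 for Dab2, 6.09 for Sepp1 and 3.97 for Apoe, and Gm6377 had 10.0. For these 19 genes the largest Sst-negative share lay in 1 cell of COP1 KO replicate 2 (65.6% to 100% of counts) and the largest Sst-positive share in 1 cell of HET replicate 2 (61.2% to 100%). Fitted values of genes at or near 0 in most libraries are no bounds.

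The other 5 were Calb2 (−5.31), Itm2a (−4.53), Fabp7 (−3.58), Junb (−1.74) and Spock1 (1.78). Fabp7, a radial glia gene, had 22.2 and 41.2 CPM in COP1 KO and 139 and 20.3 CPM in HET among Sst-negative cells, with 48.2% of the counts in 1 cell of HET replicate 1. In Sst-positive cells 63.6% of the Fabp7 counts lay in 1 cell of COP1 KO replicate 2. Spock1, a proteoglycan gene, was not concentrated, with 72.0 and 75.0 CPM in COP1 KO against 49.0 and 32.7 CPM in HET among Sst-negative cells and 41.3 and 67.0 CPM in COP1 KO against 137 and 75.5 CPM in HET among Sst-positive cells. Without barcodes of microglia or blood transcripts, Spock1 had an adjusted p of 0.139 and Junb of 0.0518 in edgeR.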

How the results depend on the processing

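Counts of called genes moved as follows. In Sst-negative cells (0 by edgeR) they were 85 without a filter on low counts, 41 with sex as a covariate, 2 with DESeq2, 1 with thinned cells, and 10 to 79 with 1 library left out. In Sst-positive cells (2) they were 83 without the filter, 1 with 2 Lhx6 UMIs, 1 with thinned cells and 44 to 110 with 1 library left out. For the difference between the classes' genotype effects (24) they were 1 with DESeq2, 7 with 2 Lhx6 UMIs, 9 with thinned cells, 3 without barcodes of microglia or blood transcripts, and 9 to 41 with 1 library left out. For Sst-negative against Sst-positive cells (313) they were 48 with DESeq2, 157 with 2 Lhx6 UMIs, 184 to 304 with 1 library left out, 445 with 3 or more Sst UMIs for Sst-positive cells, and 417 without barcodes holding Isl1, Ebf1, Meis2, Lhx8 or Chat, of which 197 were among the 313. The cause was not tested. With 1 library left out Hbb-bt (1.85) ranged from −0.13 without COP1 KO replicate 1 to 1.98 without COP1 KO replicate 2, and over the other alternatives it was up to 4.31, with 3 or more Sst UMIs, and reversed to −0.11 without barcodes of microglia or blood transcripts. The share of Sst-negative cells kept its sign in every alternative run (−0.472 to −1.2 points), and their share among Lhx6 cells ranged from −9.62 to 2.34 points with 1 library left out, reversing without HET replicate 2. Leaving out barcodes of microglia or blood transcripts and summing both Lhx6 classes were added after seeing the data. No paired analysis was possible because the labels give no replicate numbers that would pair COP1 KO with HET libraries, and the comparison of the classes has the library as a block. With 2 libraries per group and some 112 to 156 cells per library, a difference that missed the threshold may still exist.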

Other observations

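Single libraries of Sst-negative cells were low in some genes. Among genes with at least 20 counts in each of the other 3 libraries, COP1 KO replicate 1 had 6 named genes under 20% of their mean CPM (Ackr3, Frs3, Meis2, Nptn, Nr2f2 and Serinc3), COP1 KO replicate 2 had 3, HET replicate 1 had 2 and HET replicate 2 had 1. Hbb-bs, which was high in COP1 KO replicate 1, is among those of the other libraries. Nptn, a neural adhesion protein, had 3 counts in COP1 KO replicate 1, 52 in COP1 KO replicate 2, and 31 and 52 in HET. Over all barcodes with 500 genes, Nptn had 369 and 2184 counts in COP1 KO and 2333 and 2466 in HET. Serinc3, a membrane protein, had 586 and 2310 counts over those barcodes in COP1 KO and 2345 and 2375 in HET. Ackr3 and Frs3 were low there too, with 60 and 500 counts of Frs3 in COP1 KO and 493 and 454 in HET. Meis2 and Nr2f2 were not, with 3324 and 3264 counts of Nr2f2 in COP1 KO and 3301 and 3111 in HET.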
